A study of Gossypium hirsutum with 18 samples.

Results

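The comparison described here set ovules of Xu142fl against ovules of Xu142 at -1 DPA, 1 day before the flower opens (DPA, days post-anthesis). Both are lines of upland cotton, Gossypium hirsutum. As background, Xu142 bears lint and fuzz fibers and Xu142fl is the fuzzless and lintless mutant known from it. Each genotype had 3 libraries, and the labels give ovule as the tissue and no treatment. Each genotype is 1 line, and the labels name no allele, no time of day of sampling and no separate plants for the replicates, so the spread between libraries may be technical. The members are all 872 genes that the authors listed at -1 DPA of 58161 they tested, or 1.50%. Of these, 479 were higher in Xu142fl (0.824% of the genes tested) and 393 were lower (0.676%). With DESeq2's size factors taken from the listed genes themselves, which lowers every ratio by about 1.11 on the log2 scale, 701 were called, 308 higher and 393 lower. These factors centre the list on itself, so by construction they weaken the higher genes and strengthen the lower ones. Counts and ratios given with them below carry that shift and are no independent check of either direction. Over the whole series, with Xu142fl and Xu142 ovules also at 0 and 1 DPA, 11153 genes were listed on at least 1 day. The listing is itself the authors' test of Xu142fl against Xu142, so the differences at -1 DPA are given as a description. Refits of the listed genes only show how the calls depend on the processing and add no support to them.

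Cotton fibers are single cells of the outer epidermis of the ovule. They are set apart from their neighbours around the day of flowering and then bulge out and elongate, a growth that needs new membrane, cuticle, wall and microtubules. The day before flowering thus precedes visible outgrowth. An ovule holds many cells that never form fibers, and in such bulk RNA fewer cells of a type and less RNA per cell cannot be told apart.

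Values are normalised reads, which are the authors' read counts divided by 1 factor per library. Over the listed genes the recovered reads came to 210953, 246332 and 250435 in the Xu142fl libraries and to 252671, 232578 and 257804 in the Xu142 libraries. These sums cover listed genes and are not library depths. Xu142fl replicate 3 lay farther from the other libraries of its genotype than any other library did. It held the highest Xu142fl value in 289 of the 393 genes that were lower in Xu142fl, and the lowest in 347 of the 479 that were higher. It was thus the Xu142fl library nearest to Xu142 in most genes, and results that move without it are given both ways. In all 872 genes the 3 Xu142fl values and the 3 Xu142 values did not overlap, which the listing makes likely. The median coefficient of variation was 15.3% in Xu142fl and 13.3% in Xu142. A ratio is the log2 of the Xu142fl mean over the Xu142 mean, with its standard error (SE) from the 3 libraries of each genotype.

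The 872 genes were of 3 kinds. A protein name, taken from the closest described protein in the authors' annotation, was present for 464 genes, with 215 higher and 249 lower in Xu142fl. A further 146 annotated genes had no such name, with 76 higher and 70 lower. The remaining 262 were unannotated transcripts, with 188 higher and 74 lower. The differences were also larger on the higher side. The median log2 ratio was 3.26 for genes higher in Xu142fl and -1.97 for genes lower in it, and 1.86 and -1.90 among genes with a protein name. In 226 genes the mean of the lower genotype was at most 5% of that of the other, and 188 of these were higher in Xu142fl. Of those 226 genes 46 had a protein name and 146 were unannotated. Reverse transcriptase, transposase or gag domains, which are parts of mobile elements, stood in the description of 44 genes, of which 31 were higher and 13 lower. The functional groups below were found by search terms in the protein names, and 12 of the lists were edited after the names were seen. A count over a group thus covers the genes so found, and a related gene under another name can lie outside it.

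**Figure D1:**
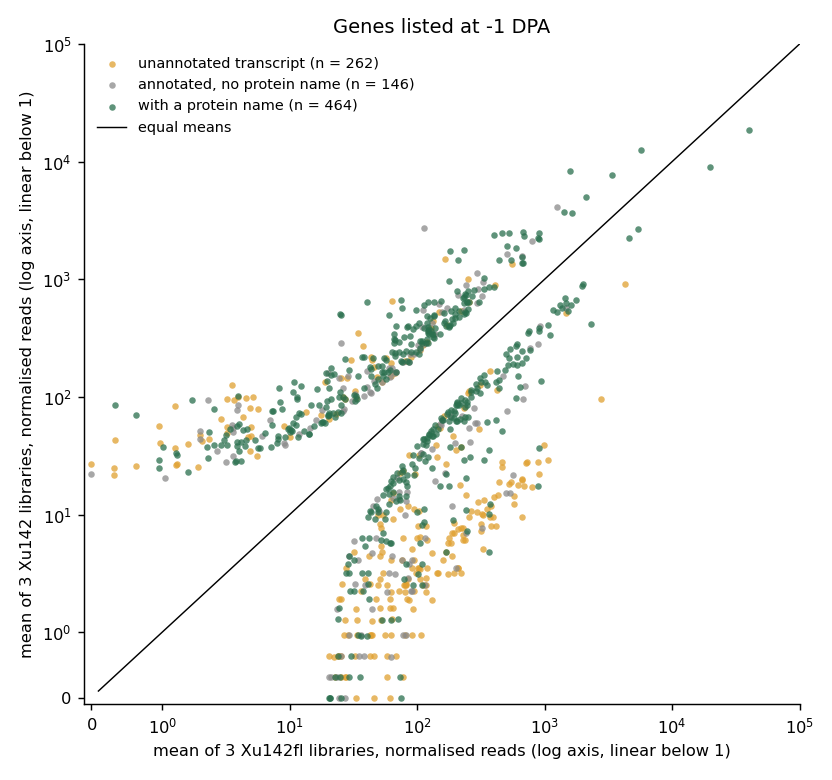
Mean normalised reads of the 872 listed genes in Xu142fl (horizontal axis) against Xu142 (vertical axis), each the mean of 3 libraries, on log axes that are linear below 1. Points under the diagonal are the 479 genes higher in Xu142fl. The unannotated transcripts, with 188 higher and 74 lower, fill most of the lower right, where Xu142 means are small.

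Genes of the circadian clock and of light signalling were lower in Xu142fl almost throughout. Of 20 listed genes of this group 19 were lower and 1 was higher, with a median log2 ratio of -1.73, beside 249 lower and 215 higher among all named genes. The clock keeps daily time through factors that act in the morning and repress others that act in the evening. LATE ELONGATED HYPOCOTYL (LHY) is a morning MYB factor, and 4 listed genes carried its name. In Gh_A12G134600 (chromosome A12, 79806591 to 79813351) there were 39.9, 41.7 and 40.8 normalised reads in the Xu142fl libraries, against 631, 435 and 873 in the Xu142 libraries. The neighbouring gene Gh_A12G134700 had 310.00, 331 and 358 in Xu142fl, against 1015, 811 and 1224 in Xu142. The Xu142fl libraries were below every Xu142 library in both, by -3.99 ± 0.28 and -1.61 ± 0.18 on the log2 scale. The copy on D12, Gh_D12G134800, had a log2 ratio of -3.06 ± 0.24, and that on D11, Gh_D11G109800, of -1.38 ± 0.20. Near-identical copies can share reads, and how the authors' counting split such reads is not given in the sources used here.

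The LNK proteins are co-activators that join morning clock factors to light-induced genes. All 8 listed LNK genes were lower in Xu142fl. LNK3 on D05 (Gh_D05G285300) had 0, 1.02 and 0 normalised reads in the Xu142fl libraries, against 71.9, 53.0 and 132 in the Xu142 libraries. Only 1 read in all was counted in Xu142fl, and the level in Xu142 was higher by 247-fold (95% counting interval 43.9 to 9783). LNK2 had 1.17, 7.11 and 3.80 in Xu142fl, against 56.9, 44.4 and 76.9 in Xu142 on A05 (Gh_A05G268900), a log2 ratio of -3.88 ± 0.66 that was -4.58 without Xu142fl replicate 2. On D05 (Gh_D05G282800) LNK2 had 7.05, 4.07 and 2.85 in Xu142fl, against 52.3, 38.6 and 69.2 in Xu142. These 3 genes were close to 0 in Xu142fl and moderate in Xu142. The 4 LNK1 genes had log2 ratios between -1.56 (Gh_D12G014400) and -2.56 (Gh_A04G136800). REVEILLE 7, a MYB factor of the LHY family, was lower in 3 copies, with log2 ratios of -2.52 ± 0.45 (Gh_D07G066600), -1.81 ± 0.35 (Gh_A07G066700) and -1.63 ± 0.28 (Gh_D12G292800).

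Other members act further along the daily cycle or in light perception. APRR5 (Gh_A11G108700), a pseudo-response regulator that represses LHY later in the day, had 21.1, 18.3 and 17.1 in Xu142fl, against 61.6, 46.3 and 72.1 in Xu142. The B-box protein CONSTANS-LIKE 5 was lower in both subgenomes, with a log2 ratio of -1.39 ± 0.22 for Gh_D08G027200. PHYTOCHROME KINASE SUBSTRATE 1 (Gh_A03G119000), which binds the red-light receptor, had a log2 ratio of -1.63 ± 0.28. The 1 member that was higher was root phototropism protein 2 (Gh_A08G231300), a partner of the blue-light phototropins, with 645, 562 and 581 in Xu142fl, against 96.1, 76.2 and 122 in Xu142. Outside the group by its name, cyclic dof factor 3 (Gh_A12G200100), a clock-controlled repressor of CONSTANS in Arabidopsis, had 52.8 in Xu142fl and 185 in Xu142. Transcripts named for the ultraviolet-B receptor UVR8 were lower in a pair of copies, with 207 in Xu142fl and 788 in Xu142 for Gh_A10G231000 and 277 in Xu142fl and 813 in Xu142 for Gh_D10G261500.

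The Xu142 libraries kept 1 order in this group. In each of the 19 genes that were lower in Xu142fl, Xu142 replicate 2 was the lowest and Xu142 replicate 3 the highest Xu142 library. Among all 393 lower genes that order held in 166. The summed level of the 20 genes was 1723, 1627 and 1744 in the Xu142fl libraries, against 4411, 3345 and 5507 in the Xu142 libraries. Without a labelled sampling hour, a difference between the genotypes and a difference in sampling time cannot be told apart for these genes. Of the 20 genes, 15 were listed on neither later day, beside 139 of all 872 genes.

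**Figure D2:**
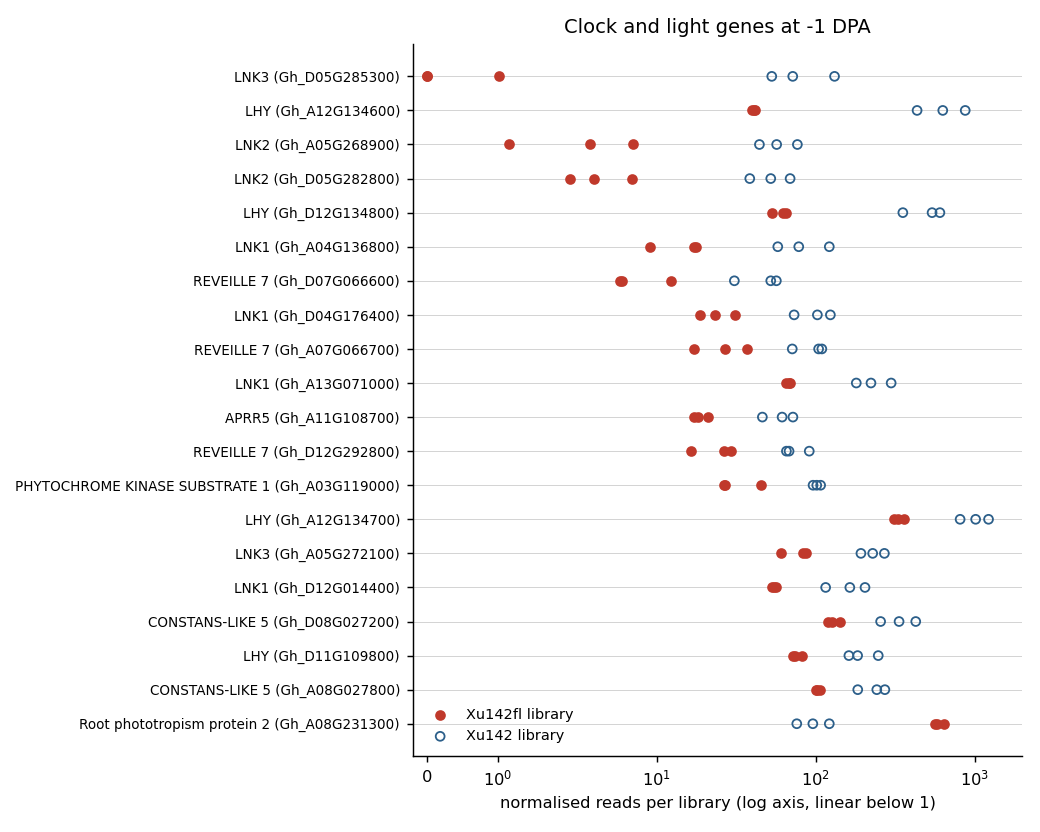
Normalised reads of the 20 listed clock and light genes in each library at -1 DPA, on a log axis that is linear below 1, with Xu142fl as filled and Xu142 as open points. In 19 rows the 3 Xu142fl points lie left of the 3 Xu142 points, and in the bottom row, root phototropism protein 2, they lie right of them.

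Genes of the photosynthetic apparatus were also lower. This group was put together after the protein names were seen, and 0 of its members came from the first search terms. It had 13 listed genes, of which 12 were lower and 1 was higher in Xu142fl, with a median log2 ratio of -2.32. Chlorophyll a-b binding protein 21 (Gh_D10G040100), a light-harvesting antenna protein, had 1.17, 2.03 and 1.90 normalised reads in the Xu142fl libraries, against 102, 44.4 and 135 in the Xu142 libraries. Oxygen-evolving enhancer protein 1 (Gh_A11G198900), part of the water-splitting side of photosystem II, had 7.05, 7.11 and 10.4 in Xu142fl, against 121, 56.9 and 179 in Xu142. Photosystem I chlorophyll a/b-binding protein 3-1 (Gh_A11G156000) had 20.0, 16.3 and 13.3 in Xu142fl, against 110.1, 60.8 and 181 in Xu142. All Xu142fl values of these genes were below all Xu142 values, while the Xu142 libraries themselves differed by more than 2-fold. RuBisCO activase 1 (Gh_A06G194300), which keeps the carbon-fixing enzyme active, had a log2 ratio of -2.32 ± 0.29. Early light-induced proteins, which bind pigments in young plastids under light, were lower in 2 genes, with a log2 ratio of -2.53 ± 0.30 for Gh_A09G244200. The 1 higher member was protochlorophyllide reductase (Gh_D05G369600), which makes chlorophyll in light, with 177, 195 and 178 in Xu142fl, against 84.9, 64.6 and 83.6 in Xu142.

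As in the clock group, Xu142 replicate 3 was the highest Xu142 library in 12 of these 12 lower genes and Xu142 replicate 2 the lowest in 11. Among all 393 lower genes Xu142 replicate 3 was the highest in 224 and Xu142 replicate 2 the lowest in 213. The group sums were 531, 606 and 567 in the Xu142fl libraries, against 1454, 1103 and 1923 in the Xu142 libraries. No member was at 0 in either genotype. These genes also mark green tissue, and the part of such tissue in the differences was not tested. Of the wider set of 27 plastid genes, which the first search terms had found, 20 were lower and 7 higher. The carbonic anhydrase 2 gene Gh_D12G294100, whose product interconverts carbon dioxide and bicarbonate, had 29.2 in Xu142fl and 171 in Xu142.

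Heat-shock factors and chaperones were lower in Xu142fl in all 11 listed members, by a median log2 ratio of -1.45 and within the narrow range of -2.00 to -1.27. Heat shock factors switch on chaperone genes, and chaperones fold and rescue proteins. HSF30 on D13 (Gh_D13G216300) had 91.6, 98.6 and 90.2 normalised reads in the Xu142fl libraries, against 385, 344 and 395 in the Xu142 libraries. Its A13 copy (Gh_A13G213200) had 56.4, 55.9 and 79.7 in Xu142fl, against 236, 211 and 269 in Xu142. Heat stress transcription factor B-2a, a factor of the class that lacks an activator domain, had log2 ratios of -1.44 ± 0.11 (Gh_A08G204900) and -1.46 ± 0.06 (Gh_D08G200400). Both factors were thus lower in both subgenomes.

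Their chaperone partners ran the same way. Heat shock cognate protein 80, a cytosolic HSP90, had 599, 664 and 759 in Xu142fl, against 2485, 2139 and 2919.5 in Xu142 in Gh_A13G149100. The D13 copy (Gh_D13G150100) had 542 in Xu142fl and 1455 in Xu142. Heat shock cognate 70 kDa protein had a log2 ratio of -1.45 ± 0.20 (Gh_A05G083500) on A05 and -1.38 ± 0.06 (Gh_D05G094900) on D05. The small chaperone 17.5 kDa class I heat shock protein (Gh_D12G152800) had 52.8, 53.9 and 40.8 in Xu142fl, against 187, 163 and 195 in Xu142, and was 1 of 2 members also listed at 0 DPA. In this group Xu142 replicate 2 was the lowest Xu142 library in 10 of 11 genes, beside 213 of all 393 lower genes. The part of that library in the differences was not tested.

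The 2 listed genes of an epidermal regulator were among the most abundant lower transcripts with a protein name. PROTODERMAL FACTOR 2 (PDF2), a homeodomain factor that maintains epidermal identity, had 251, 349 and 781 normalised reads in the Xu142fl libraries, against 2398, 2409 and 2591 in the Xu142 libraries in Gh_A06G172400. In Gh_D10G015500 it had 312, 416 and 849 in Xu142fl, against 2443, 2463 and 2506 in Xu142. Xu142fl replicate 3 was the highest Xu142fl library in both, and without it the log2 ratio of Gh_A06G172400 was -3.04, against -2.42 ± 0.51 with it. That of Gh_D10G015500 was -2.23 ± 0.45. ATHB-40, a homeodomain-leucine zipper factor of another class, was lower in Gh_A11G196800, with 625, 609.8 and 564 in Xu142fl, against 1812, 1595 and 2079 in Xu142, and in Gh_D11G200000, with a log2 ratio of -1.84 ± 0.07. These 4 homeodomain-leucine zipper genes were thus lower in Xu142fl, and so was zinc-finger homeodomain protein 4 (Gh_A05G381100), with 12.9 in Xu142fl and 50.9 in Xu142.

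Apart from the LHY and REVEILLE 7 genes of the clock group, all of which were lower, MYB factors were split, with 6 higher and 5 lower. With size factors from the listed genes 1 of them was called higher and 5 lower. The name MYB39, borne in Arabidopsis by a suberin regulator, stood on 5 genes with both directions. Gh_D12G181200 had 150.3, 169.7 and 309 in Xu142fl, against 1410.3, 1285 and 1648 in Xu142, the most abundant of them in Xu142. Gh_A10G154500 ran the other way, with 349.9, 343 and 329 in Xu142fl, against 129, 137 and 134 in Xu142. Transcription factor WER, a MYB factor that in Arabidopsis sets hairless cell fate in the root epidermis, was higher in Gh_D04G061400, with 97.5, 121 and 90.2 in Xu142fl, against 29.9, 33.8 and 27.9 in Xu142. Among other DNA-binding factors, bHLH35 (Gh_A13G235300) was higher with 414 in Xu142fl and 63.7 in Xu142, and bZIP transcription factor 11 (Gh_D06G005600), whose translation sucrose represses in Arabidopsis, had 1981 in Xu142fl and 872 in Xu142. CUP-SHAPED COTYLEDON 3 (Gh_A05G161900), a NAC factor of organ boundaries, had 237 in Xu142fl and 81.6 in Xu142. Growth-regulating factors, which promote cell proliferation in young organs, were lower in 2 genes, with 55.0 in Xu142fl and 214 in Xu142 for Gh_A06G027300 and 57.2 in Xu142fl and 206 in Xu142 for Gh_D05G265300.

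Very-long-chain lipid, wax and cuticle genes had 15 members lower and 2 higher, with a median log2 ratio of -1.32. This pathway elongates fatty acids and turns them into the waxes that coat epidermal cells. ECERIFERUM 26-like (Gh_A08G189600), of a family that helps elongation to the longest chains, had 287, 355 and 563 normalised reads in the Xu142fl libraries, against 2372, 2156 and 2558 in the Xu142 libraries. 3-Ketoacyl-CoA synthases, the first enzymes of each elongation step, were lower in 3 genes, of which KCS19 (Gh_A10G219300) had 23.5, 16.3 and 25.6 in Xu142fl, against 70.9, 69.4 and 77.8 in Xu142. The reductase (Gh_A03G056300) and dehydratase (Gh_A11G222200) of the same cycle had log2 ratios of -1.08 ± 0.09 and -1.12 ± 0.14. Genes for each kind of step of the elongation cycle other than the last reduction were thus among the lower ones.

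Wax formation downstream mostly showed the same direction. ECERIFERUM 3, which works with ECERIFERUM 1 to make alkanes, had 4.70, 2.03 and 15.2 in Xu142fl, against 57.9, 56.9 and 59.6 in Xu142 in Gh_D08G261100, and its log2 ratio was -4.11 without Xu142fl replicate 3 against -2.99 ± 0.79 with it. ECERIFERUM 1 itself was split between 2 genes. Gh_A05G335100 was lower with 157, 164 and 213 in Xu142fl, against 422, 361 and 405 in Xu142, whereas Gh_A06G185800 was higher with 252, 279 and 254 in Xu142fl, against 28.9, 27.0 and 37.5 in Xu142. O-acyltransferase WSD1, a wax ester synthase, was lower in both subgenomes by -1.19 (Gh_A04G123300) and -1.19 (Gh_D04G163400) on the log2 scale. Xu142fl replicate 3 was the highest Xu142fl library in 14 of the 15 lower genes, beside 289 of all 393 lower genes. The 3 listed non-specific lipid-transfer proteins, which carry lipids outside the cell, were lower, with 121 in Xu142fl and 644 in Xu142 for Gh_D10G123300 and 889.7 in Xu142fl and 2245 in Xu142 for Gh_A10G149700. ABC transporter G family member 13 (Gh_D09G122900), of the group that exports cutin and wax precursors, had 1408 in Xu142fl and 3698 in Xu142.

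Water channels and tubulins were also lower, while other genes of the cytoskeleton went both ways. All 3 listed aquaporins were lower with a median log2 ratio of -3.26. Aquaporin PIP-type 7a (Gh_D06G194600), a plasma membrane channel, had 123, 147 and 276 in Xu142fl, against 1851, 1774 and 1619.7 in Xu142, and TIP1-1 (Gh_A11G371700), of the vacuole membrane, had 3.76 in Xu142fl and 28.3 in Xu142. Tubulin beta-4 (Gh_A07G127700), a subunit of microtubules, had 1370.3, 1415 and 1974 in Xu142fl, against 8187, 7963 and 8966 in Xu142. Protein MOR1 (Gh_A05G353100), which binds and stabilises microtubules, went the other way, with 84.5, 79.3 and 60.8 in Xu142fl and no read in Xu142, and was at least 78.6-fold higher in Xu142fl against the floor of 3 reads over the group. An actin gene (Gh_D01G244100) had a log2 ratio of -1.47 ± 0.15. The formins, which nucleate actin filaments, were higher, with log2 ratios of 1.25 ± 0.07 for formin-like protein 6 (Gh_D05G062200) and 1.31 ± 0.11 for formin-like protein 20 (Gh_A07G076100), although neither was called with size factors from the listed genes.

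Enzymes of the cell wall were more often on the higher side. Of 6 expansin and xyloglucan genes 5 were higher, with a median log2 ratio of 1.65, and of 6 genes of cellulose and other wall glycans 5 were higher, with a median of 1.19. Most of these differences were small, and with size factors taken from the listed genes 1 higher and 1 lower member were called in each group. Xyloglucan endotransglucosylase/hydrolase (XTH) enzymes cut and rejoin the polymer that ties cellulose fibrils together. XTH 2 (Gh_D02G024500) had 310.00, 231 and 159 normalised reads in the Xu142fl libraries, against 26.1, 30.9 and 29.8 in the Xu142 libraries. XTH 22 (Gh_D02G111600) had 70.5, 76.2 and 32.3 in Xu142fl, against 14.0, 10.6 and 12.5 in Xu142, and XTH 31 (Gh_D08G221000) 75.2, 57.9 and 50.3 in Xu142fl, against 18.7, 13.5 and 20.2 in Xu142. The single lower member was expansin-A4 (Gh_A07G108100), which loosens walls at acid pH, with 198, 174 and 338 in Xu142fl, against 767, 768 and 736 in Xu142.

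COBRA-like proteins, anchored proteins linked to cellulose deposition, were higher, with 2002 in Xu142fl and 917 in Xu142 for COBRA-like protein 8 (Gh_A11G237800) and 757 in Xu142fl and 361 in Xu142 for COBRA-like protein 7 (Gh_D02G064800), whose log2 ratio came to -0.0444 with size factors from the listed genes. Trichome birefringence-like 35, of a family that acetylates wall polysaccharides, had 112, 112 and 79.7 in Xu142fl, against 6.53, 1.93 and 0.961 in Xu142 in Gh_A04G115200, a log2 ratio of 5.01 ± 0.80 that was 6.13 without Xu142 replicate 1. Peroxidases and other redox enzymes were higher in all 7 listed genes, with a median log2 ratio of 1.55, of which 1 was still called with size factors from the listed genes. Peroxidase 5 (Gh_D12G264800) had 1107, 1222 and 1004 in Xu142fl, against 339.7, 317 and 351 in Xu142. The 4 genes found by phenylpropanoid and terpene names were higher, of which 2 were still called with size factors from the listed genes. Among them was shikimate O-hydroxycinnamoyltransferase (Gh_D06G231100), which commits phenylpropanoids to the lignin branch, with 71.6, 53.9 and 62.7 in Xu142fl, against 5.60, 5.79 and 5.76 in Xu142. Lupeol synthase (Gh_D06G220600), a triterpene synthase outside those names, was lower with 213 in Xu142fl and 537 in Xu142. Both listed pectin genes were lower, and polygalacturonase 1 beta-like protein 3 (Gh_Contig00680G000200) had 662 in Xu142fl and 1541 in Xu142.

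Genes found by ethylene names were higher in 6 of 7 cases, with a median log2 ratio of 2.76. With size factors from the listed genes, 4 of these 6 and the lower one were called. Such a name alone does not show a part in making or sensing ethylene. The committed step of ethylene synthesis is catalysed by 1-aminocyclopropane-1-carboxylate (ACC) synthase, and ACC oxidase then forms ethylene. ACC synthase (Gh_A12G256700) had 1027, 1026 and 749.9 normalised reads in the Xu142fl libraries, against 140.00, 127 and 146 in the Xu142 libraries. An ACC oxidase (Gh_D08G188500) went the other way, at a lower level, with 0, 1.02 and 5.70 in Xu142fl, against 32.7, 30.9 and 49.0 in Xu142. The synthase was thus higher in every Xu142fl library and this oxidase lower in every one. A pair of genes named ACC oxidase homolog 1 was higher at a like low level, with 31.7, 24.4 and 19.0 in Xu142fl, against 0, 0.964 and 0 in Xu142 for Gh_A09G251000. Gh_A09G251200 averaged 30.2 in Xu142fl and 0.643 in Xu142, and these rest on 1 and 2 reads in Xu142. Whether the products of these homologs form ethylene was not tested. With single Xu142fl libraries left out, the log2 ratio of the oxidase, -4.07 ± 1.15, ran from -6.21 without replicate 3 to -3.48 without replicate 1. Ethylene-responsive factors RAP2-3 (Gh_A08G136900) and RAP2-7 (Gh_A03G047000) had log2 ratios of 1.43 ± 0.08 and 1.32 ± 0.12. XBAT32 (Gh_A08G097700), a ubiquitin ligase that in Arabidopsis targets ACC synthases for breakdown, had 921, 1026 and 772 in Xu142fl, against 37.3, 38.6 and 33.6 in Xu142.

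Genes of other hormones were few and went both ways. Gibberellin 3-beta-dioxygenase 1 (Gh_D06G223900), which makes active gibberellins, was lower with 38.8, 54.9 and 66.4 in Xu142fl, against 155, 163 and 169 in Xu142. Cytokinin dehydrogenase 5 (Gh_D05G190700), which breaks cytokinins down, was higher with 171, 193 and 185 in Xu142fl, against 65.3, 64.6 and 71.1 in Xu142. The abscisic acid receptor PYL8 (Gh_D12G270500) was higher with 98.6, 122 and 97.8 in Xu142fl, against 5.60, 5.79 and 5.76 in Xu142. Auxin-repressed 12.5 kDa protein (Gh_D06G149900), a marker of low auxin or dormancy, was among the most abundant lower transcripts with 5716 in Xu142fl and 12669 in Xu142. SAUR67 (Gh_A03G236900), of a family of small auxin-induced proteins, had no read in Xu142 and was at least 21.2-fold higher in Xu142fl against the floor of 3 reads over the group. Salicylate carboxymethyltransferase (Gh_D12G065000), which methylates salicylic acid, was lower with 2.35, 4.07 and 3.80 in Xu142fl, against 38.3, 38.6 and 83.6 in Xu142, whereas methylesterase 10, of the family that removes such methyl groups, was higher in 3 genes, with 167 in Xu142fl and 4.78 in Xu142 for Gh_A11G200500.

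Receptor-like kinases and calcium proteins lay mostly on the higher side. Of 8 receptor-like kinases, which sense signals at the cell surface, 7 were higher with a group median of 2.30, and 4 were called higher and 1 lower with size factors from the listed genes. A kinase named At5g24010 was higher in 3 genes, with 51.7, 55.9 and 58.9 in Xu142fl, against 9.33, 8.68 and 9.61 in Xu142 in Gh_A11G238000. LysM domain receptor-like kinase 3 (Gh_A11G163800), of a family that binds chitin-like sugars, had 72.2 in Xu142fl and 14.3 in Xu142. The exception was HSL1 (Gh_A10G020300), a relative of the abscission receptor HAESA and by far the most abundant of the group, with 759, 796 and 1163 in Xu142fl, against 2507, 2612 and 2343 in Xu142. Among 5 calcium genes 4 were higher, or 2 higher and 1 lower by call with those size factors. Calcium-binding protein CML50 (Gh_D03G083700) had 966, 894 and 819 in Xu142fl, against 20.5, 19.3 and 12.5 in Xu142, and calcium-dependent protein kinase 1 (Gh_D13G003200) 181, 179 and 175 in Xu142fl, against 16.8, 16.4 and 19.2 in Xu142. MAP3K epsilon protein kinase 1 (Gh_A06G214700), of a mitogen-activated cascade, had 366 in Xu142fl and 35.3 in Xu142.

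Immune receptors and defense proteins were split evenly, with 13 higher and 13 lower, or 4 and 13 with size factors from the listed genes. Most of the resistance genes, whose products recognise pathogens, had means under 100 in both genotypes. The resistance protein RGA2 (Gh_D03G177800) was lower with 14.1, 15.2 and 34.2 in Xu142fl, against 163, 196 and 171 in Xu142. Probable disease resistance protein At5g43730 (Gh_D11G321500) was higher, and more abundant, with 1111, 1112 and 939.8 in Xu142fl, against 419, 382 and 428 in Xu142. ACCELERATED CELL DEATH 6 (Gh_D04G211300), a membrane protein of salicylic acid defense, had 17.6, 18.3 and 39.9 in Xu142fl, against 483, 428 and 579 in Xu142. Glucan endo-1,3-beta-glucosidases, which cut callose, were higher in 3 genes, with 1878, 1719.5 and 1656 in Xu142fl, against 632, 583 and 766 in Xu142 in Gh_D10G040000. MLP-like proteins, of the major latex protein family, were higher in 3 genes and lower in 1, with 1381 in Xu142fl and 573 in Xu142 in Gh_A01G169700. Vacuolar-processing enzyme, a protease of vacuolar cell death, was lower in Gh_A07G023300 with 10.6, 18.3 and 45.6 in Xu142fl, against 506, 459 and 555 in Xu142, a log2 ratio of -4.35 ± 0.62 that was -5.13 without Xu142fl replicate 3. It was higher in Gh_D09G120900 with 69.3, 70.1 and 89.2 in Xu142fl, against 25.2, 28.0 and 16.3 in Xu142.

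Housekeeping groups showed single copies that differed by several-fold. Of 10 translation genes 7 were lower and 3 higher. Ribosomal protein L24-1 (Gh_A09G197400) had 29.4, 77.2 and 116 in Xu142fl, against 678, 636 and 689.8 in Xu142, and L7a-1 (Gh_D03G127600) 636, 624 and 802 in Xu142fl, against 2502, 2232 and 2276 in Xu142. Cytochrome c oxidase subunit 6a (Gh_A02G178500), of the respiratory chain, had 509 in Xu142fl and 1901 in Xu142. All 3 listed chromatin genes were higher, of which 2 were called with size factors from the listed genes. Histone H2B.3 (Gh_A13G255900) had 1694, 1673 and 1432 in Xu142fl, against 589.9, 609 and 601 in Xu142, and the MYST family histone acetyltransferase 1 (Gh_D10G161800) had 141, 113 and 86.4 in Xu142fl, against 14.0, 8.68 and 10.6 in Xu142. No listed gene carried a name of the H3K27 methylation machinery, the mark named in the title of the series. In DNA replication, cell division control protein 45 (Gh_A11G148200), part of the replicative helicase, had 115, 119.9 and 90.2 in Xu142fl, against 2.80, 2.89 and 1.92 in Xu142, and replication factor C subunit 3 (Gh_A13G183200), of the clamp loader, 156, 158 and 140.5 in Xu142fl, against 14.0, 22.2 and 16.3 in Xu142. The cyclin-dependent kinase inhibitor 7 (Gh_D02G235400), a brake on the cell cycle, was lower with 124 in Xu142fl and 344 in Xu142.

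Transporters and metabolic enzymes were mixed. NRT1/PTR family 2.11 (Gh_A12G196600), whose Arabidopsis counterpart imports glucosinolates, had 368, 403 and 352 in Xu142fl, against 12.1, 14.5 and 10.6 in Xu142. SWEET15 (Gh_D04G160000), a sucrose exporter, was higher with 58.7 in Xu142fl and 16.8 in Xu142, and acid beta-fructofuranosidase (Gh_D09G206200), an invertase that splits sucrose, was lower with 87.7 in Xu142fl and 327 in Xu142. Aldehyde dehydrogenase family 7 member B4 (Gh_A06G169400), which removes aldehydes under stress, was higher with 2292, 2505 and 2136 in Xu142fl, against 418, 394 and 449 in Xu142. The most abundant listed transcript was that of BURP domain protein BNM2A (Gh_D10G210000), with 39332, 41813 and 39169.8 in Xu142fl, against 18936, 18239 and 19077 in Xu142. USPL1 (Gh_A10G189800), another BURP domain protein, had 19852, 20571 and 18976 in Xu142fl, against 9082, 8318 and 9718 in Xu142. Both belong to a family of plant-specific secreted proteins and were about 2-fold higher in Xu142fl, although the log2 ratio of BNM2A came to -0.0124 with size factors from the listed genes.

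Markers of other tissues were few in the list. No listed gene was found by the names of ovule identity genes searched. The term floral homeotic found PMADS 1 (Gh_A02G200300), in petunia a gene of petal and stamen identity, which was higher with 507, 535 and 425 in Xu142fl, against 176, 167 and 169 in Xu142. The pollen list had 1 member, major pollen allergen Ole e 10 (Gh_A12G138600), higher with 92.3 in Xu142fl and 32.1 in Xu142, and the seed storage list had 0. A table of listed genes shows no gene that is alike in both genotypes, so the ovule label could not be checked against defining markers.

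**Figure D3:**
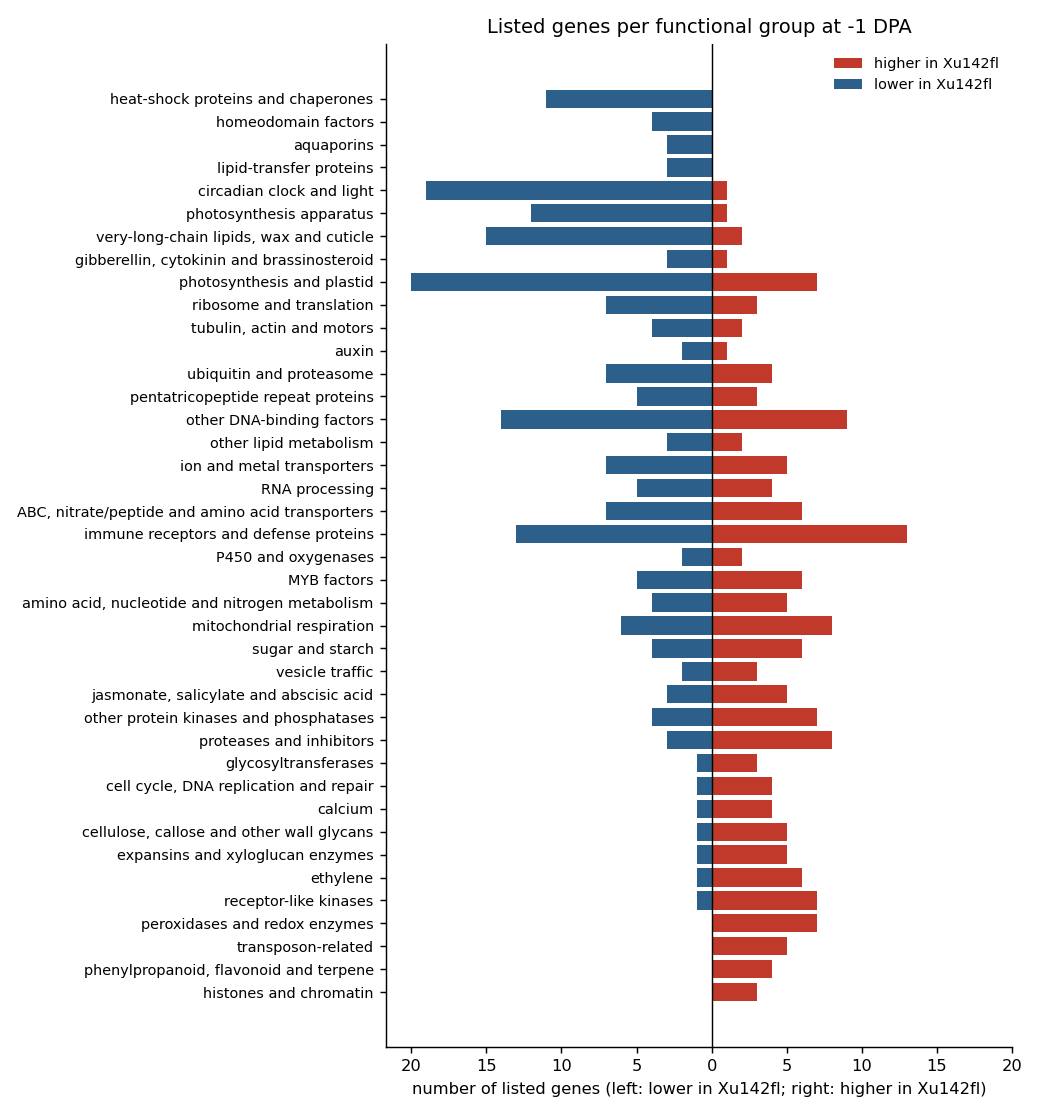
Number of listed genes at -1 DPA in each functional group with at least 3 members, with genes higher in Xu142fl to the right and genes lower in Xu142fl to the left. Groups are ordered by their share of higher genes, from heat-shock proteins with 11 lower and 0 higher at the top to histones and chromatin with 3 higher and 0 lower at the bottom.

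Cotton is a tetraploid with an A and a D subgenome, and each gene can have a copy in both. Of the listed genes 431 were on the A subgenome (238 higher, 193 lower) and 420 on the D subgenome (231 higher, 189 lower). The number of genes tested on each subgenome is not known here. Among named genes, 28 pairs shared a protein name on chromosomes of the same number in both subgenomes. Some genes stood in 2 pairs, and a shared name does not show that the genes of a pair descend from the same gene. In 20 pairs both copies were lower in Xu142fl, in 8 both were higher, and in 0 they went opposite ways. A pair was counted only where both copies were listed, and the pairs held 52 of the 452 named genes on chromosomes. The other named genes had no such listed partner, so these counts do not cover them. The lower pairs included LNK2, HSF30, ATHB-40, UVR8 and WSD1. The higher pairs included receptor-like kinase At5g24010, aspartic proteinase and the kinase At5g01020, whose copies had log2 ratios of 1.49 ± 0.13 (Gh_A13G216400) and 1.73 ± 0.13 (Gh_D13G219800). Copies that share sequence can share reads, so the copies of a pair are not independent. Over all names carried by at least 2 listed genes, 40 of 53 had all their members in 1 direction and 13 had members in both.

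Listed genes also lay in runs of neighbours. Runs of at least 3 listed genes with gaps of at most 500000 bases numbered 71 and held 290 of the 851 genes on numbered chromosomes, and 15 runs had 1 direction throughout. Positions of unlisted genes were not used, so how many such runs gene density alone would give was not tested. The longest run held 17 genes on D02, between 206736 and 1861270 on the authors' build, which is not named. Of these, 13 were higher and 4 lower in Xu142fl. Zinc finger BED proteins of the RICESLEEPER type, a family of domesticated transposase origin, made up 4 of them. Gh_D02G012700 (chromosome D02, 1044289 to 1053365) had 372, 377 and 339.8 normalised reads in the Xu142fl libraries, against 3.73, 7.71 and 2.88 in the Xu142 libraries. Gh_D02G013700 had 164, 198 and 182 in Xu142fl, against 37.3, 48.2 and 27.9 in Xu142, and Gh_D02G013600 49.3, 40.7 and 34.2 in Xu142fl, against 1.87, 4.82 and 0.961 in Xu142, with a log2 ratio of 4.02 ± 0.68 that was 4.87 without Xu142 replicate 2. All 4 were higher in every Xu142fl library. A pair of genes with an agglutinin domain, a sugar-binding fold, lay next to each other, and Gh_D02G011400 had 736, 697 and 682 in Xu142fl, against 143, 135 and 94.1 in Xu142. The Peter Pan-like gene (Gh_D02G014700), named for a ribosome assembly factor, was lower with 12.9, 30.5 and 19.9 in Xu142fl, against 146, 164 and 149 in Xu142.

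**Figure D4:**
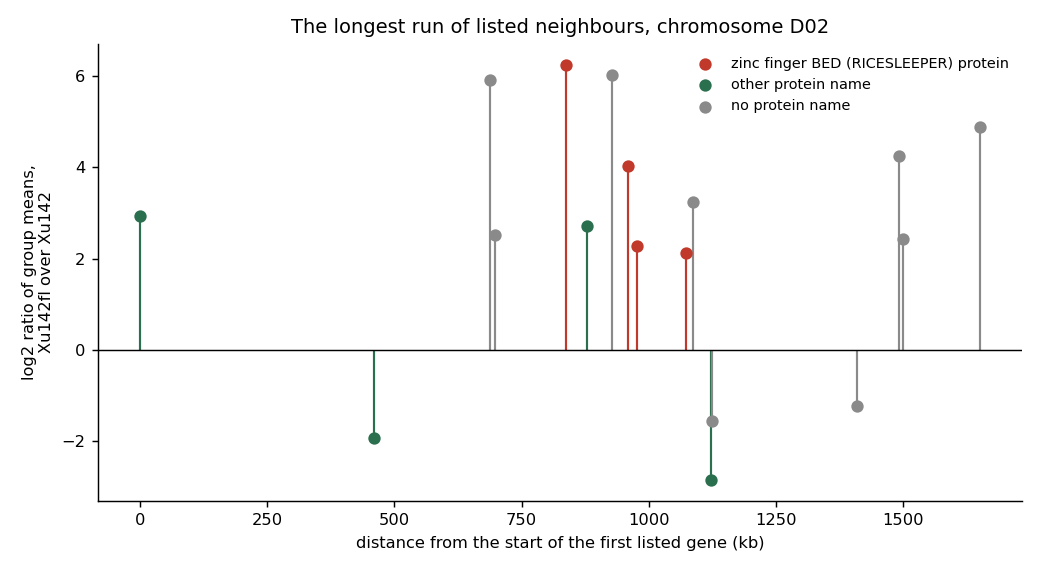
Log2 ratio of group means, Xu142fl over Xu142, for the 17 listed genes of the longest run on chromosome D02, against distance from the start of the first gene in kilobases. The 13 genes above 0, the 4 zinc finger BED genes among them, were higher in Xu142fl and the 4 below 0 were lower.

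The later days were compared gene by gene. The authors listed 1366 of 57326 genes tested at 0 DPA (2.38%), 0.876% of those tested being higher and 1.51% lower in Xu142fl. At 1 DPA they listed 10793 of 61474 (17.6%), with 5.70% higher and 11.9% lower. The 0 DPA table held 559 of the 872 genes, or 64.1% of them and 40.9% of that table. Of these 558 kept their direction and 1 did not. The 1 DPA table held 700, or 80.3% of the 872 and 6.49% of that table, with 672 in the same direction and 28 in the opposite one. Both tables held 526 of the genes, and 139 were listed on neither later day. A gene that is not listed on a day may differ there by less than the authors' criteria.

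The 139 genes listed at -1 DPA alone were 52 higher and 87 lower, and 15 of them were the clock and light genes above. Others were the UVR8 pair, HSF30 in both subgenomes, expansin-A4, HSL1, both BURP domain genes and the asparaginase Gh_D06G021300, which releases ammonia from asparagine, with 3323, 3345 and 3428 in Xu142fl, against 7669, 6742 and 8531 in Xu142. G3BP-like protein (Gh_D11G149700), named for a stress-granule protein, was higher with 5439, 5582 and 5316 in Xu142fl, against 2640.4, 2686 and 2715 in Xu142, but its log2 ratio came to -0.0861 with size factors from the listed genes. Of the very-long-chain lipid genes 12 of 17 were listed at 0 DPA and 15 of 17 at 1 DPA, shares near the 64.1% and 80.3% of all 872 genes. ECERIFERUM 26-like, with -2.56 on the log2 scale at -1 DPA, stood at -2.52 on the day of flowering and at -4.43 by 1 DPA. Heat-shock genes were listed again in 2 of 11 cases at 0 DPA and 7 of 11 at 1 DPA.

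Whether the genotype difference itself changed between days was tested for the genes listed in both tables. The test was the interaction of genotype and day in edgeR's quasi-likelihood model, two-sided, with Benjamini-Hochberg adjustment over 58161 genes. Between -1 and 0 DPA it called 38 of 559 genes, and 118 had an unadjusted p under 0.05. In 36 of the 38 the difference had the same direction on both days and was larger at -1 DPA. These were genes with a low level in Xu142 at -1 DPA, among them XBAT32, CML50 and NRT1/PTR family 2.11. CML50 had 893 ± 73.6 in Xu142fl and 17.4 ± 4.33 in Xu142 at -1 DPA, and 916 ± 54.0 in Xu142fl and 177 ± 24.5 in Xu142 at 0 DPA. Over the 36 genes the median Xu142 level was 3.19%, 3.45% and 2.84% of the Xu142fl mean in the 3 Xu142 libraries at -1 DPA. It was 26.5%, 25.3% and 23.3% in those of 0 DPA and 0% in those of 1 DPA. The 36 genes were picked for a smaller ratio at 0 DPA, and this share is that ratio read the other way. The rise from -1 to 0 DPA thus follows from the choice of genes. The medians were near-equal in the 3 Xu142 libraries of 0 DPA, while single genes ran from 11.3% to 39.0% there. The cause of the smaller ratios at 0 DPA was not tested.

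Between -1 and 1 DPA the test called 108 of 700 genes, and 327 had an unadjusted p under 0.05. In 80 of the 108 the direction was the same on both days, and the difference was larger at 1 DPA in 78 of these. Both genes lower and genes higher in Xu142fl were among them, and many of the higher ones were unannotated transcripts. Of the 700 genes, 534 had reads in both genotypes at 1 DPA, and of the 242 unannotated transcripts 128 had. Where a genotype had no read, the size of a fitted change depends on a small count that the model adds. Over all 108 genes the fitted change in log2 ratio was positive in 53 and negative in 55. An unannotated transcript on D03 (5047744 to 5052919) had 2789 in Xu142fl and 96.3 in Xu142 at -1 DPA, and its fitted change was 4.72. Wax and lipid genes were among the lower ones. KCS19 had a log2 ratio of -1.74 at -1 DPA and -7.51 at 1 DPA, and the lipid-transfer protein Gh_D10G123300 had -2.41 and -8.73. Actin (Gh_D01G244100) had -1.47 and -5.51. Protein E6, known as an abundant fiber protein, had 169.6 ± 42.2 in Xu142fl and 404 ± 36.4 in Xu142 at -1 DPA in Gh_A05G145000, and 157 ± 44.2 in Xu142fl and 54587 ± 18476 in Xu142 at 1 DPA. The other listed gene of that name, on A10, went the other way at -1 DPA, with 495 in Xu142fl and 234 in Xu142. It was listed on neither later day.

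The other 28 of the 108 were all the genes listed in opposite directions on these days, and 20 of them had a protein name. Genes listed as different in opposite directions on 2 days are all but bound to pass this test, so their calls add no support to those listings. XTH 2, higher in Xu142fl at -1 DPA as given above, had 559 ± 50.7 in Xu142fl and 4879.6 ± 2147 in Xu142 at 1 DPA. XTH 22 had 3.70 ± 1.58 in Xu142fl and 66.4 ± 37.0 in Xu142 at 1 DPA, COBRA-like protein 7 had 267 ± 14.9 in Xu142fl and 885 ± 369 in Xu142, and WER had 66.0 ± 20.5 in Xu142fl and 177 ± 27.5 in Xu142. Each of these was higher in Xu142fl at -1 DPA and lower in it at 1 DPA. The nitrate transporter family member NRT1/PTR 6.1 (Gh_D02G195800) and L-ascorbate oxidase homolog (Gh_D05G255900) showed the same change, with 64.9 in Xu142fl and 2843 in Xu142 and 144 in Xu142fl and 3242 in Xu142 at 1 DPA.

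The opposite change, lower in Xu142fl at -1 DPA and higher at 1 DPA, was seen in both ATHB-40 copies. Gh_A11G196800 had 5330.1 ± 1133 in Xu142fl and 1172 ± 598 in Xu142 at 1 DPA, and Gh_D11G200000 3136 ± 459 in Xu142fl and 925 ± 707 in Xu142. Gibberellin 3-beta-dioxygenase 1 had 698 ± 63.1 in Xu142fl and 262 ± 85.9 in Xu142, annexin D4 (Gh_D05G282500), a calcium-dependent membrane-binding protein, had 88.0 in Xu142fl and 30.8 in Xu142, and the cyclin-dependent kinase inhibitor 7 had 96.4 in Xu142fl and 39.4 in Xu142. At 0 DPA the 1 gene of opposite direction was a guanine nucleotide-binding protein beta subunit-like gene (Gh_A06G013400), with 21.0 in Xu142fl and 95.6 in Xu142 at -1 DPA, and 240.1 in Xu142fl and 63.1 in Xu142 at 0 DPA.

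**Figure D5:**
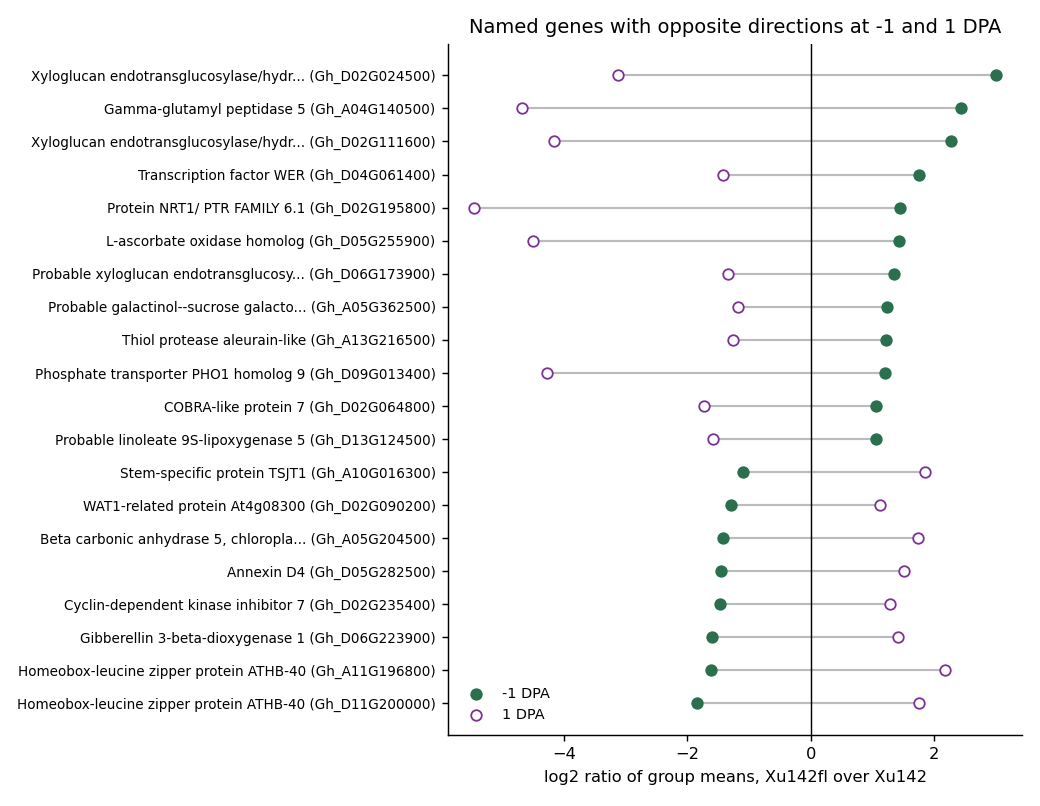
Log2 ratio of group means, Xu142fl over Xu142, at -1 DPA (filled points) and 1 DPA (open points) for the 20 named genes listed in opposite directions on these days. In the upper 12 rows, XTH 2 at the top, the ratio is above 0 at -1 DPA and below 0 at 1 DPA, and in the lower 8, both ATHB-40 genes at the bottom, the reverse holds.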

How the data were processed

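Ovule RNA of Xu142fl and Xu142 was sequenced in 3 libraries per genotype and day, grouped by their titles. The authors deposited 1 table of called genes per day, with normalised reads per library (a signal, coverage not being given), log2 fold changes of Xu142 over Xu142fl, and p-values, per the file headers. For the aligner, counting tool, strand use, annotation and build, no name is given in the sources used here. The deposited log2 fold change was smaller than the ratio of group means (median 0.679 of it), so the ratios here are of group means. Within each library 100% of values were whole multiples of 1 step (tolerance 0.001), which gave back the reads. The largest deposited adjusted p-value at -1 DPA was 4.93e-05.

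Refits used edgeR 4.0.16, limma 3.58.1 and DESeq2 1.42.0 in R 4.3.3, with adjustment over 58161 genes, the number tested by the authors as worked out from their raw and adjusted p-values, unlisted genes being taken as not called. In simulated -1 DPA counts, edgeR had an unadjusted p under 0.05 for 96% of 2-fold and 100% of 4-fold changes and 3.72% of unchanged genes, of 872 genes.

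The members and the gene lists were chosen with earlier results of these data known. Lists were search terms on protein names, with 24 edits to 12 lists after the names were seen. They covered 336 of the 464 named genes, and 41 genes stood in at least 2 lists. Named genes were the strongest of each list with a mean of at least 50, the 25 strongest with a mean of at least 100 and 15 most abundant each way, the 3 most abundant of each run, homeologs of these, and the 10 most abundant genes listed on this day alone or turned round on another. Of the 147 genes first named, 17 lay outside that rule. They were chosen after their values were seen, among them clock, wax, ACC oxidase, MOR1 and E6 genes. ABC transporter G family member 11 and long-chain-alcohol O-fatty-acyltransferase 5 were named besides these, also with their values seen. Where 0 reads were found, the floor was 3 reads over the group. No sequence is shown, since 0 of the gene identifiers matched the RefSeq gene table at hand.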

Additional observations from a re-analysis of the deposited data

Results flagged for a closer look

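The genotype difference turned round between days in 21 named genes, each called by the interaction of genotype and day (edgeR's quasi-likelihood test, Benjamini-Hochberg over 58161 genes). Values are the later day's log2 ratio of Xu142fl over Xu142 minus that at -1 DPA, as fitted. The authors' tables list these genes in opposite directions on the 2 days, which all but fixes the call, so it is given as a description. No cause was tested.

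At 1 DPA 12 genes had turned from higher to lower in Xu142fl. The differences between days were -6.13 for XTH 2 (Gh_D02G024500), -6.34 for XTH 22 (Gh_D02G111600) and -2.71 for XTH 8 (Gh_D06G173900), all enzymes of xyloglucan. COBRA-like protein 7 (Gh_D02G064800) had -2.79 and the MYB factor WER (Gh_D04G061400) -3.19. Among transporters, NRT1/PTR family 6.1 (Gh_D02G195800) had -6.90 and the phosphate exporter PHO1 homolog 9 (Gh_D09G013400) -5.47. Enzymes made up the rest, with -7.10 for gamma-glutamyl peptidase 5 (Gh_A04G140500), -5.93 for the L-ascorbate oxidase homolog (Gh_D05G255900), -2.65 for linoleate 9S-lipoxygenase 5 (Gh_D13G124500), -2.48 for thiol protease aleurain-like (Gh_A13G216500) and -2.43 for galactinol-sucrose galactosyltransferase 5 (Gh_A05G362500), which makes raffinose.

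At 1 DPA 8 genes had turned from lower to higher. ATHB-40 had 3.80 on A11 (Gh_A11G196800) and 3.60 on D11 (Gh_D11G200000). Gibberellin 3-beta-dioxygenase 1 (Gh_D06G223900) had 3.01, beta carbonic anhydrase 5 (Gh_A05G204500) 3.17, annexin D4 (Gh_D05G282500) 2.98 and stem-specific protein TSJT1 (Gh_A10G016300) 2.95. The cyclin-dependent kinase inhibitor 7 (Gh_D02G235400) had 2.76 and WAT1-related protein At4g08300 (Gh_D02G090200) 2.42. At 0 DPA the guanine nucleotide-binding protein beta subunit-like gene (Gh_A06G013400) had turned from lower to higher, by 4.10.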

How the results depend on the processing

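The edgeR and DESeq2 refits with the authors' factors called all 872 genes, limma 859 (log2 of the value plus 1) and 741 (plus 0.1), and TMM factors from the listed genes 871, with a median shift of -0.18. No filter on the mean and no stricter p removed a gene, and the p limit of 0.01 could remove none, being above every deposited adjusted p-value. The genes were listed on these same values, so such counts add no support to the listing. Leaving out each library gave 858 to 872 calls, 476 to 479 higher and 380 to 393 lower. DESeq2's own size factors from the listed genes called 308 higher genes against 479, or 43.9% of its calls higher against 54.9%, by their own construction, since they centre the list on itself. Under them the count of higher minus lower members turned to -4 for MYB factors, to -2 for amino acid and nitrogen genes, and to -1 for jasmonate, salicylate and abscisic acid, sugar, mitochondrial, protease and vesicle genes. The log2 ratio became -0.0444 for COBRA-like protein 7, -0.0124 for BNM2A, -0.0861 for the G3BP-like protein and -0.0443 for linoleate 9S-lipoxygenase 5 (Gh_D13G124500). Limma turned other lipid genes to 1 with either constant, because fewer members were called, and 1 gene per protein name turned the transporters to 1.

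The interaction gave 29 to 50 calls at 0 DPA and 89 to 136 at 1 DPA over all alternatives. With libraries left out these ranges were 33 to 40 and 89 to 118. The replicate block gave 872 listed genes and 39 and 131 interaction calls. Deviations of same-numbered libraries correlated at 0.006, 0.04 and 0.025, and those of differently numbered ones at -0.0393 to 0.0174. Taken over listed genes alone, these values cannot settle whether same-numbered libraries share a plant, day or batch.

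With 3 libraries per genotype, 1 line each and no separate plants labelled, the errors cover the spread between these libraries. Unlisted genes were not analysed here, total depth is unknown, and intervals cover counting error. In 72 genes the lower genotype had at most 3 reads, and their ratios are the least certain.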

Other observations

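Several abundant listed transcripts had no protein name. The annotated gene Gh_A07G210600 had 84.5, 101 and 155 normalised reads in the Xu142fl libraries, against 2657, 2252 and 3273 in the Xu142 libraries. The neighbours Gh_A03G061200 and Gh_A03G061100 were both lower in Xu142fl, with mean normalised reads of 1256 in Xu142fl and 4134 in Xu142 for Gh_A03G061200 and of 789 in Xu142fl and 2109 in Xu142 for Gh_A03G061100. The most abundant unannotated transcript (chromosome D02, 3454102 to 3455485) had 4697, 4574 and 3455 normalised reads in the Xu142fl libraries, against 915, 907 and 938 in the Xu142 libraries. All were picked for their abundance after their values were seen.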
